A study of Mus musculus with 2 samples.

Results

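The genes described here are Cxcr4, Met, Myb, Mmp14, Cxcl12, Hgf and Ret. Cxcr4, Met, Myb and Mmp14 need the transcription factors Etv4 and Etv5 for their expression in the kidney's ureteric bud. Cxcl12 and Hgf are the ligands of Cxcr4 and Met, and Ret is the receptor that lies above the factors there. All were chosen by gene symbol, from probe sets annotated with that symbol alone. All 7 were found, each with 1 probe set and with 0 probe sets shared with another gene, among 19938 genes in the table. The tissue was lung of mouse embryos at E13.5, when the airway tree is still branching. The knockout group is labelled as Etv4;5 knockout, with CKO in one label and DKO in others, and the control group as wild type. A Cre line and the deleted exons are not given in the sources used here, so which lung cells had lost the factors is not known from them. RNA of 3 samples per group was pooled before 1 array was run for each pool. There were thus 2 arrays and no replicates, and a difference below compares 2 pools, with no test and no error. The number of arrays limits the precision of every value.

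In the branching kidney, the ligand Gdnf signals through the receptor tyrosine kinase Ret at the tip of the ureteric bud. Ret signalling raises Etv4 and Etv5, and these factors are needed there for expression of Cxcr4, Met, Myb and Mmp14. In the lung, the same pair of factors lies downstream of fibroblast growth factor receptors in the distal epithelium. Whether genes that need the factors in one branching organ also follow them in another was the question asked. RNA of lung tissue with all its cell types, on 2 arrays, cannot answer it for the distal epithelium alone. Cxcr4 is the receptor of the chemokine Cxcl12, which guides migrating cells. Met is the receptor of hepatocyte growth factor, Hgf, a ligand made by mesenchyme that acts on epithelium. Myb is a transcription factor of progenitor cells. Mmp14 is a protease anchored in the cell membrane that cuts collagen and activates the secreted protease Mmp2.

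ETS factors such as Etv4 and Etv5 bind DNA sites with a GGAA core, so the promoters of the 4 bud genes are shown with that of Cxcl12, the measured member whose values differed most between the arrays. RefSeq promoters of the build GRCm38.p6 were given for 6 of the 7 genes, with a promoter for each of 2 start sites of Hgf. Each sequence below is the 250 bases before the start site, on the strand of the gene. The promoter of Cxcr4 lies at chr1:128592300-128592549 on the minus strand, that of Met at chr6:17463707-17463956 on the plus strand, and that of Myb at chr10:21160985-21161234 on the minus strand. The promoter of Mmp14 lies at chr14:54431348-54431597 and that of Cxcl12 at chr6:117168285-117168534, both on the plus strand. Capitals mark each GGAA and, for the other strand, each TTCC.
Cxcr4: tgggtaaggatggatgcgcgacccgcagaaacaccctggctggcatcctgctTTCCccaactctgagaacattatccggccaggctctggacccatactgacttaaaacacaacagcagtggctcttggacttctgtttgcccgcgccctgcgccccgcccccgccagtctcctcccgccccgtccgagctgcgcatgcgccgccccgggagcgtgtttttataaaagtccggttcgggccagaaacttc
Met: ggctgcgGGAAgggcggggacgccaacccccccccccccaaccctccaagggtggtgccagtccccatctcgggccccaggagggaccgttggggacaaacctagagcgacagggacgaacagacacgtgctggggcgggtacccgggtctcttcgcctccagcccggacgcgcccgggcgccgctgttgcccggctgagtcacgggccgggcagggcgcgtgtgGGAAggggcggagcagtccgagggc
Myb: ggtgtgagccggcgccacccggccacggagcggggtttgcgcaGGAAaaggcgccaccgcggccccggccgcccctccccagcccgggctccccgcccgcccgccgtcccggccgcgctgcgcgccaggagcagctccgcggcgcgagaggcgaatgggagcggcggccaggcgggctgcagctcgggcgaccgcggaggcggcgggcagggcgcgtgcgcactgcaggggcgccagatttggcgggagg
Mmp14: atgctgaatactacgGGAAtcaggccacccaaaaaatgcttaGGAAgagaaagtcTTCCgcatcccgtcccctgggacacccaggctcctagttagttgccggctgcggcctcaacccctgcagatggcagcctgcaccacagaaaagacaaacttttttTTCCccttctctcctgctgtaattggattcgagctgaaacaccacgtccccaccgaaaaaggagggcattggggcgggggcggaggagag
Cxcl12: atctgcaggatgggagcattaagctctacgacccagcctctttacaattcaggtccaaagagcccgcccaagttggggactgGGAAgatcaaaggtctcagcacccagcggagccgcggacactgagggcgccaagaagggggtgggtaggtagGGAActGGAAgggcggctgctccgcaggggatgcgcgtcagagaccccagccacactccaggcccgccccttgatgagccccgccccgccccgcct

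The GGAA letters, searched on both strands, occurred 1 time each for Cxcr4 and Myb, 2 times for Met, 3 times for Cxcl12 and 4 times for Mmp14. They also occurred 6 and 4 times before the 2 start sites of Hgf. Of 32851 promoter windows of the same length 93.4% held GGAA at least once, with a median of 3 matches and quartiles of 2 and 4. Counts from 2 to 4 thus lie within the quartiles, the count of 1 for Cxcr4 and Myb below them and the count of 6 for Hgf above them. The longer letters AGGAAG, which contain GGAA, were present in Mmp14, from 209 to 204 bases before the start, and before both start sites of Hgf. They were present in 29.5% of all windows. CCGGAAG, which also contains GGAA, was in 0 of the promoters of these genes and in 6.91% of all windows. A match describes letters in a window and is not a binding site.

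The arrays held embryonic lung RNA, and the targeted genes read lower in the knockout pool. All 10 genes listed as defining embryonic lung counted as measured, among them Nkx2-1 and Tbx4 (picked after their values were seen) and Foxf1, meaning that the brighter of a gene's values reached the median of its array. Of 16 matched genes of the ureteric bud and early kidney other than the 7 described here, 8 did not count as measured, a share near the 44.6% of all genes that did not. Etv4 was at 6.96 in knockout and 7.59 in wild type, a log2 difference of -0.63, and did not count as measured. The 2 probe sets of Etv5 were at 11.28 and 11.17 in knockout and at 11.51 and 11.41 in wild type. Whether these probe sets lie in the deleted exons is not known here, and where they do not they check nothing. Xist, transcribed from the silenced X chromosome of females, was at 5.74 in knockout and 12.34 in wild type, so the sex makeup of the pools also differed and cannot be told apart from genotype. None of the 7 genes lies on chromosome X or Y, or on chromosome 11 or 16, which carry Etv4 and Etv5.

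Of the 7 genes, those that depend on the factors in the kidney were close to level between the lung pools, and both ligands read lower in the knockout pool. Among the 6 genes that counted as measured, 2 were higher, 2 lower and 2 exactly equal in knockout against wild type, with a median log2 difference of 0. Over all 11045 measured genes the median difference was also 0, with 25.7% higher, 47.0% lower and 27.3% exactly equal. None of the 7 genes differed by 2-fold or by 1.5-fold. Across measured genes such differences were rare: 0.0543% reached 2-fold on the higher side and 0.0362% on the lower side in knockout, and 0.172% and 0.163% passed 1.5-fold in these directions. Past 1.2-fold, 1 of the 6 measured genes, Cxcl12, was lower and 0 were higher, where all measured genes gave 1.53% lower and 1.39% higher. With a set this small, 1 gene past that fold is a count and no more.

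**Figure D1:**
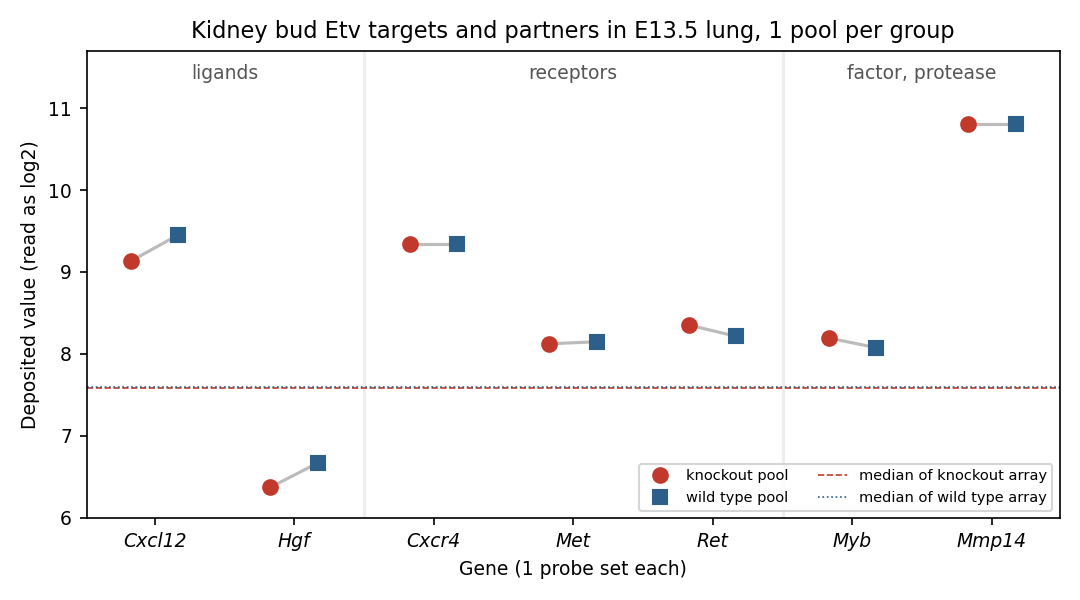
Deposited value, read as log2, of the 7 genes in the knockout pool (circles, left of each pair) and the wild type pool (squares, right), with 1 probe set per gene, 1 array per pool and the median of each array as a dashed or dotted line. The differences are -0.32 for Cxcl12 and -0.30 for Hgf in knockout against wild type, 0.14 for Ret and 0.12 for Myb, and only Hgf lies under the array medians; heights of different genes are not comparable, since each probe set has its own brightness.

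Cxcl12, the chemokine ligand, was at 9.13 in the knockout pool and 9.45 in the wild type pool. Its log2 difference of -0.32, or 1.25-fold, was the largest of the 7 in size. Of the 11045 measured genes, 88 had a more negative difference than Cxcl12. Around its level, within 0.25 on the log2 scale, 1655 genes were found, and the central 95% of their differences ran from -0.24 to 0.17, so Cxcl12 lay outside that range. For comparison, 618 measured genes were read by 2 probe sets, and the differences from those probe sets were 0.043 apart in the median and 0.18 at the 90th percentile. The Cxcl12 difference exceeded that gap, but as it rests on 1 probe set its own gap is unknown.

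Hgf was at 6.37 in knockout and 6.67 in wild type, a log2 difference of -0.30 (1.23-fold). Both values lie below the medians of their arrays, 7.58 in knockout and 7.60 in wild type, so Hgf did not count as measured and its difference rests on dim signal. Among 1739 genes of similar level the central 95% of differences ran from -0.19 to 0.29. The value for Hgf lay under that range, like that of Cxcl12. No replicate shows whether either value would recur in other embryos.

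The receptors of these ligands read level or nearly so between the pools. Cxcr4 was at 9.34 in knockout and 9.34 in wild type, equal to every deposited digit. Equal values were common at its level, at 27.5% of 1631 genes, so equality on these arrays is not a mark of Cxcr4. Met was at 8.12 in knockout and 8.15 in wild type, a log2 difference of -0.03. Among 1439 genes of similar level the central 95% of differences ran from -0.27 to 0.25, and Met lay well inside. Taken as pairs, the ligand's difference minus that of its receptor was -0.32 for Cxcl12 and Cxcr4, -0.27 for Hgf and Met and -0.09 for Gdnf and Ret. The values of the last 2 pairs rest on ligands that did not count as measured, and Gdnf was picked after its value was seen, with a difference of 0.04.

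Ret, the receptor at the head of the kidney pathway, was at 8.35 in the knockout pool and 8.21 in the wild type pool. Its log2 difference of 0.14 was the most positive of the 7. Of the measured genes 551 had a more positive difference, and the range of genes of similar level, -0.26 to 0.24, includes it. In the kidney Ret lies above Etv4 and Etv5 in the pathway, and in embryonic lung it is known from the neural crest-derived neurons along the airways.

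The transcription factor gene Myb read slightly higher, and the protease gene Mmp14 gave the same value in either pool. Myb was at 8.19 in knockout and 8.08 in wild type, a log2 difference of 0.12, with 741 measured genes more positive and a similar-level range of -0.27 to 0.25. Mmp14 was at 10.80 in knockout and 10.80 in wild type, again equal to every deposited digit. At its level, where 873 genes were compared, 27.4% had equal values and the central 95% of differences ran from -0.18 to 0.09. For Ret and Myb the difference was smaller than the 0.18 that bounds 90% of the gaps between probe sets of 1 gene.

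**Figure D2:**
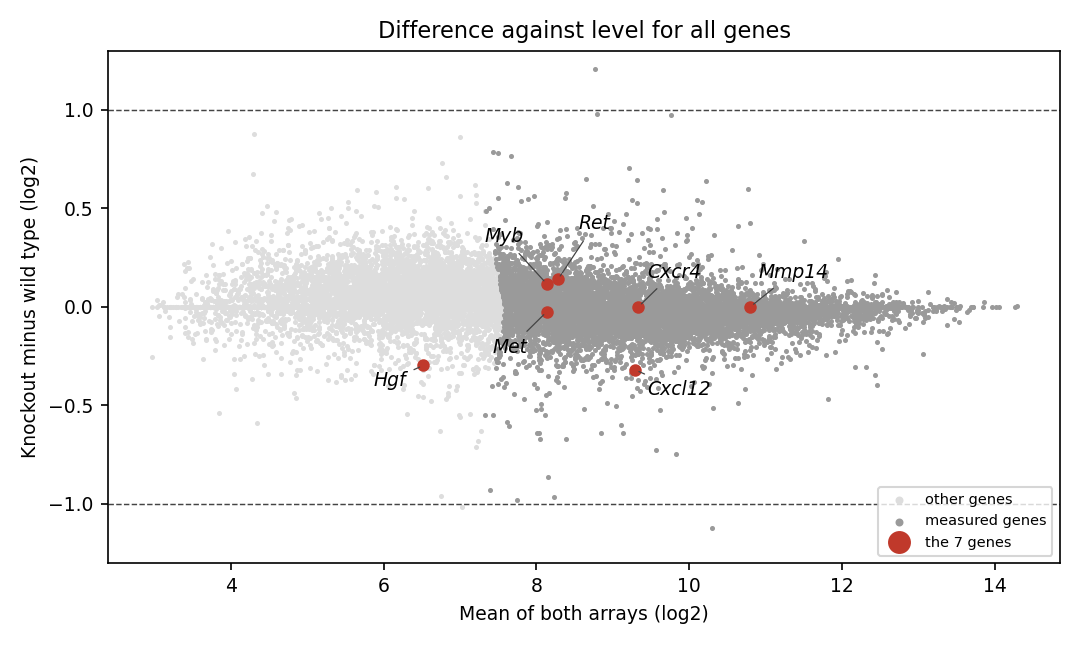
Knockout minus wild type (log2) against the mean of both arrays (log2) for all 19938 genes, with measured genes in dark grey, other genes in light grey, the 7 genes in red and dashed lines at 2-fold. The vertical axis ends at 1.3 in either direction and leaves out 8 genes; Cxcl12 and Hgf lie at the lower edge of the cloud at their levels and the other 5 genes inside it.

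The partners of Cxcl12 and Cxcr4 showed little difference. Of 8 measured genes of this list other than these, 2 were higher, 3 lower and 3 equal, with a median of 0. The shares over all measured genes were 25.7% higher, 47.0% lower and 27.3% equal. The largest differences were 0.10 for Dpp4 and -0.06 for the proteoglycan gene Gpc3. Dpp4, a cell surface peptidase that cleaves Cxcl12, was at 9.54 in knockout and 9.44 in wild type. Gpc3 was at 12.37 in knockout and 12.43 in wild type. It lies on chromosome X, and the sex makeup of the pools differed. Ackr3, the scavenger receptor that takes up Cxcl12, was at 7.61 in both pools (difference -0.0029). It was picked after its value was seen, as the other receptor of the ligand.

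Of 9 measured genes around Hgf and Met other than Met, 5 were higher, 1 lower and 3 equal, with a median of 0.014. All measured genes gave 25.7% higher, 47.0% lower and 27.3% equal. Spint1, a membrane inhibitor of proteases that activate Hgf, was at 9.75 in knockout and 9.49 in wild type, a difference of 0.26. St14, the membrane protease matriptase, which can activate Hgf and is held in check by Spint1, was at 9.98 in knockout and 9.76 in wild type, a difference of 0.22. Gab1, the docking protein of Met, was at 11.02 in knockout and 11.13 in wild type, a difference of -0.10. Spint1 and St14 lie above the central 95% of measured genes, which ran from -0.22 to 0.20. Both are expressed in epithelium, and most markers of the epithelium list given below also read higher. The distal epithelial genes Sftpc and Sox9 read lower. The part of epithelial content in the values of Spint1 and St14 was not tested.

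Of the Gdnf and Ret list, Gfra1, the co-receptor that presents Gdnf to Ret, read higher together with Ret. Gfra1 was at 9.04 in knockout and 8.75 in wild type, a difference of 0.29. Nrtn, the related ligand neurturin, was at 7.79 in knockout and 7.67 in wild type, a difference of 0.12, and the ligand Gdnf itself did not count as measured. Of 9 measured genes other than Ret, 4 were higher, 2 lower and 3 equal, with a median of 0. Among all measured genes 25.7% were higher, 47.0% lower and 27.3% equal.

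Of 9 measured genes around Mmp14 other than Mmp14, 0 were higher, 6 lower and 3 equal, with a median of -0.025, beside 25.7% higher, 47.0% lower and 27.3% equal over all measured genes. Reck, a membrane-anchored inhibitor of Mmp14 and Mmp2, was at 10.09 in knockout and 10.21 in wild type, a difference of -0.12. Mmp2, the secreted protease that Mmp14 activates, was at 12.34 in knockout and 12.39 in wild type, a difference of -0.05, as was the difference of Furin, the convertase that matures Mmp14. Timp2, the inhibitor that also links Mmp2 to Mmp14, was picked after its value was seen and was equal on both arrays at 10.25. All 9 lay inside the central 95% of measured genes.

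Of 9 measured family members, cofactors and targets other than Myb, 0 were higher, 4 lower and 5 equal, with a median of 0. Over all measured genes 25.7% were higher, 47.0% lower and 27.3% equal. Bcl2, a survival gene that Myb is known to activate in blood cells, was at 10.47 in knockout and 10.60 in wild type, a difference of -0.12. Kit, the receptor of stem cell factor and likewise a Myb target in blood cells, was at 9.81 in knockout and 9.91 in wild type, a difference of -0.10.

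Other genes of the ureteric bud and early kidney went both ways in the lung pools. Of 8 measured genes, 3 were higher, 4 lower and 1 equal, with a median of -0.0037. Across all measured genes the shares were 25.7% higher, 47.0% lower and 27.3% equal. The progenitor factor Sox9, used at the tips of both organs, was at 10.53 in knockout and 10.84 in wild type, a difference of -0.32. Gfra1, given above, was the most positive. The transcriptional coactivator gene Cited1 was at 7.77 in knockout and 7.87 in wild type, a difference of -0.11. Cited1 also lies on chromosome X, so the differing sex makeup of the pools limits its value. Wnt11, a Ret target at the ureteric bud tip, was picked after its value was seen and differed by 0.06, at 8.25 in knockout and 8.19 in wild type. Median and mean of this list, -0.0037 and -0.016, were both close to 0.

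**Figure D3:**
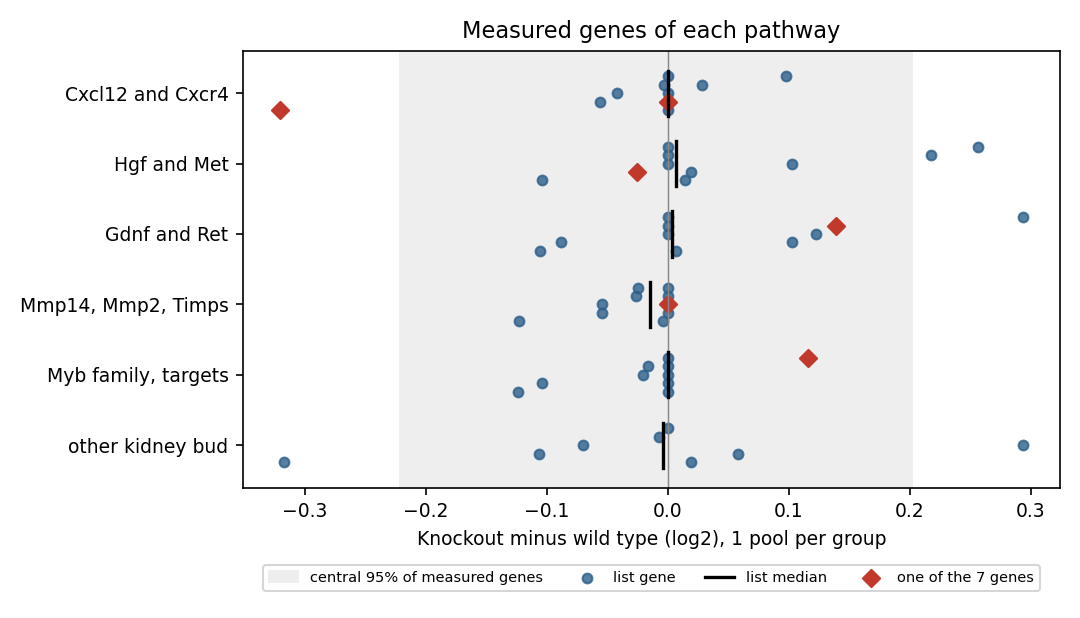
Knockout minus wild type (log2) for the measured genes of 6 lists, 1 row per list, with the 7 genes as red diamonds, other genes as blue points, list medians as black bars and the central 95% of all measured genes as a grey band from -0.22 to 0.20. Outside the band lie Cxcl12 and Sox9 on the lower side, and Spint1, St14 and Gfra1 on the upper side (Gfra1 stands in 2 lists).

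Markers of several cell types that make or read these signals differed between the pools as well. In bulk tissue, fewer cells of a type and less RNA per cell cannot be told apart. For each list below, counts and medians are over the measured markers. Mean levels are over all matched markers, measured or not. The counts stand beside 25.7% higher, 47.0% lower and 27.3% equal over all measured genes. Of 12 mesenchyme markers, the tissue known to make Cxcl12 and Hgf, 11 were measured, 10 lower and 1 higher, with a median of -0.09 and a mean level of 10.62 in knockout and 10.72 in wild type. The forkhead factor gene Foxf1 differed by -0.40, Wnt2 by -0.31 and Prrx1 by 0.22. All 9 measured smooth muscle markers of 10 were lower, with a median of -0.22, a mean level of 9.95 in knockout and 10.17 in wild type, and Synpo2, Myocd and Cnn1 at -0.49, -0.39 and -0.31. The differences of Cxcl12 and Hgf were more negative than both medians and less negative than those of Synpo2, Foxf1 and Myocd. The part of these cells in the lower ligand values was not tested.

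Epithelium, which carries Met, had 12 measured markers of 12, with 10 higher, 1 lower and 1 equal, a median of 0.11 and a mean level of 10.32 in knockout and 10.15 in wild type. The keratin genes Krt18, Krt19 and Krt8 differed by 0.47, 0.45 and 0.33, while Met differed by -0.03. This list leaves out the distal epithelial genes Sftpc and Sox9 of the lung list, which differed by -1.12 and -0.32. Not all of the epithelium thus read higher. Of the 10 genes on the lung list, which also holds mesenchyme genes, 3 were higher and 7 lower. Endothelium, a site of Cxcr4, had 12 measured markers of 12, with 1 higher, 9 lower and 2 equal, a median of -0.017 and a mean level of 10.11 in knockout and 10.15 in wild type. Its largest differences were -0.15 for Sox17, -0.08 for Pecam1 and -0.08 for Tek. The endothelial median stands beside a median of 0 over all measured genes. The medians of the arrays, over all probe sets, differed by -0.017, knockout minus wild type. Arterial endothelium, also known to make Cxcl12, had 7 measured markers of 8, with 4 higher, 2 lower and 1 equal, a median of 0.014 and a mean level of 9.09 in knockout and 9.10 in wild type. Efnb2 differed there by -0.20, Sox17 by -0.15 and Gja5 by 0.14.

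Leukocytes, which use Cxcr4 and Myb, had 6 measured markers of 12, with 5 lower and 1 equal and a median of -0.09. The mean level of all 12 was 7.62 in knockout and 7.71 in wild type. The macrophage genes Mrc1, Csf1r and Cd68 differed by -0.17, -0.15 and -0.10. Erythroid cells had 4 measured markers of 10 matched, all lower, with a median of -0.24 and Slc4a1, Hba-x and Hbb-y at -0.26, -0.25 and -0.24. The mean level of all 10 was 8.13 in knockout and 8.25 in wild type. Of 9 matched markers of neurons and neural crest cells, which use Ret, 2 were measured, Ednrb at -0.49 and the neuronal gene Stmn2 at -0.20. The mean level of all 9 was 7.19 in knockout and 7.28 in wild type. Ednrb had the largest difference of the 9, which weighs on these means. The neural crest factor gene Sox10 was at 7.50 in both pools. The neuronal tubulin gene Tubb3 was at 5.76 in knockout and 5.92 in wild type. Phox2a and Foxd3 read higher in knockout, by 0.05 and 0.02, and Elavl3, Elavl4 and Dbh were equal. All of these but Ednrb and Stmn2 were picked after their values were seen and lie below the medians of the arrays. Mesothelium had 6 measured markers of 8, with 4 higher, 1 lower and 1 equal and a median of 0.05. The mean level of all 8 was 8.54 in knockout and 8.42 in wild type. Krt19, which is also counted with epithelium above, was at 0.45, Bnc1 at 0.20 and Upk3b at -0.09. No marker had a level of 0 on either array. The lowest values of all probe sets were 2.69 in knockout and 2.72 in wild type, so this does not show that each marker was detected. The part of the cell types above in the values of Cxcr4, Myb, Mmp14, Ret and Met was not tested.

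**Figure D4:**
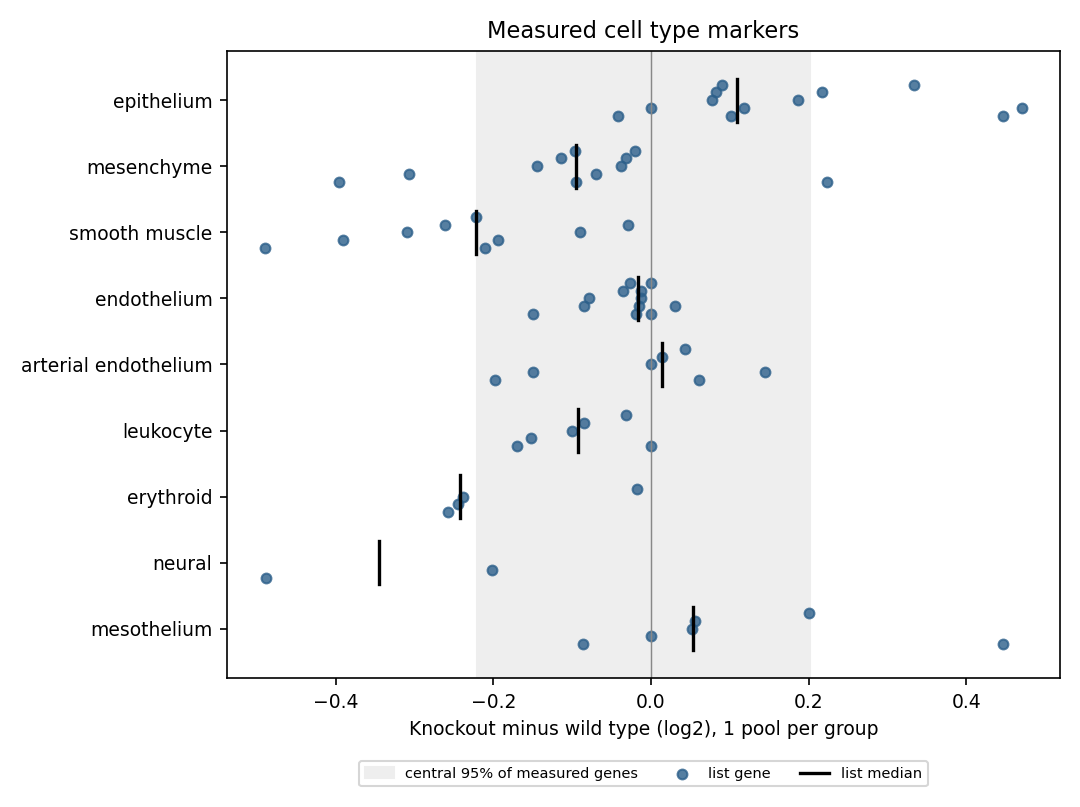
Knockout minus wild type (log2) for the measured markers of 9 cell types, 1 row per cell type, with list medians as black bars and the central 95% of all measured genes as a grey band. Epithelial markers lie mostly right of 0, and mesenchyme, smooth muscle and erythroid markers mostly left of it, with medians of 0.11, -0.09, -0.22 and -0.24.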

How the data were processed

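Total RNA was labelled with biotin and read on Affymetrix arrays, per the labels' protocols, and RNA was pooled within each group, per the series' design text. The authors deposited processed values for 35557 probe sets, which were read as log2 expression from their range, 2.69 to 14.4 in knockout and 2.72 to 14.4 in wild type. What the authors did to make these deposited log2 values (log base, summary method, normalization) is not given in the sources used here. Platform annotation gave 1 symbol for 21789 probe sets, several for 1621 and none for 12147. The RefSeq table (GRCm38.p6) held 21698 of the 21789 and renamed 0. It served for symbols and chromosomes only.

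Each gene was represented by its probe set with the highest mean. A gene was measured when its brighter value reached that array's median, and a gene with equal values had to reach both medians. All 6 measured genes of the 7 reached it on both arrays. Differences are knockout minus wild type. With 1 array per group no test was run. The genes and lists were chosen with earlier results of these data known. Some list genes are not reported here. Genes named besides the 7 are Etv4, Etv5, sex-linked genes and, per list, those past 1.5-fold or otherwise the 3 measured ones with the largest difference, apart from those stated as picked later. Sftpc, the only gene past 1.5-fold on the lung list, differed by -1.12. Differences were 0.64 for Uty, 0.53 for Eif2s3y and 0.53 for Kdm5d, all Y-linked, and 0.03 and -0.06 for the probe sets of Etv1. Alternatives were 3 other scalings, other probe set rules, filters, a floor and lower thresholds. The steps were tested on simulated data. Python 3.11.15, numpy 2.4.6, pandas 2.3.3, statsmodels 0.14.6 and matplotlib 3.10.9 were used.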

Additional observations from a re-analysis of the deposited data

How the results depend on the processing

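No paired analysis was possible because each group has 1 array of pooled RNA, which also prevents leaving one out. The count of 0 measured genes past 2-fold was 1 at 1.2-fold (Cxcl12), which follows from the lower threshold, and 0 under every other alternative run. Under equal medians, quantile scaling and loess (span 0.3), the log2 difference of Cxcl12 lay between -0.30 and -0.29, that of Hgf between -0.32 and -0.28, Met between -0.025 and -0.0079, Myb between 0.12 and 0.13 and Ret between 0.14 and 0.16. Cxcr4 and Mmp14, equal as deposited, came to lie between 0.017 and 0.029 and between 0.017 and 0.023, so that 4 measured genes were then higher, 2 lower and 0 equal. Equal medians moved the median of all measured genes by 0.017 as well, so these signs carry no direction. The median of the 6 measured genes, 0 as deposited, was between 0.017 and 0.026 under these scalings. Other probe set rules changed none of the 7 differences, since each gene has 1 probe set. With the filter at the 75th percentile 3 of the 7 genes were measured, Cxcr4, Cxcl12 and Mmp14. Dim signal limits Hgf, the only one of the 7 below the array medians.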
